A study of Danio rerio with 6 samples.

Results

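The genes described here carry out DNA replication and mitosis, and were chosen by name. They are the entries of the deposited gene table whose symbol begins with that of an origin recognition, MCM helicase, GINS, replicative polymerase, clamp or clamp loader, ribonucleotide reductase, mitotic cyclin, kinase, checkpoint, centromere, kinetochore or kinesin gene, or of MKI67 or top2a. This gave 98 of the 25745 listed genes: 48 that act in S phase, 47 that act in mitosis, and 3 that match only by name. The products of these 3 (mcm3ap, aurkaip1 and mki67ip) are not part of the replication or mitosis machinery. Their messenger RNA was measured in tails of zebrafish embryos of strain AB at 28 hours after fertilisation, in 3 libraries of sih mutants and 3 libraries of wild-type (WT) embryos. sih (silent heart) embryos carry a mutation of tnnt2a, the gene of cardiac troponin T, and their hearts do not contract; WT hearts beat. The labels give both genotypes the same strain, stage and growth conditions, and number the libraries 1 to 3 in each. The sources used here do not give the allele, the number of embryos in a library, or whether the WT embryos were siblings.

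A dividing cell copies its DNA once and then separates the copies. Origins are marked by the origin recognition complex, which with CDC6 loads the MCM helicase in G1; CDC45 and GINS turn the helicase on in S phase, and polymerases held by the PCNA clamp make the new strands from nucleotides supplied by ribonucleotide reductase. Cyclin-bound CDK1 then drives entry into mitosis, in which kinetochores built on the centromeres attach chromosomes to the spindle and a checkpoint of BUB and TTK proteins delays separation until they are attached. In many animal tissues transcripts of these genes are abundant where cells cycle, which is why they serve as a readout of proliferation in growing tissue such as the tail of an embryo.

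Each value is a normalised read count, the reads of a gene divided by 1 factor per library, and groups of 3 values run in the order of replicates 1, 2 and 3. The reads counted on the listed genes of a library numbered between 21240839 and 27222955, and 1 read was worth 0.826 to 1.43 normalised counts. A change is the log2 ratio of sih over WT on values plus 1, followed by its standard error. Libraries of the same number deviated together, so each change is given from a fit that compares sih with WT within each numbered pair (the paired fit), tested with limma over 22813 genes with Benjamini-Hochberg adjustment and a threshold of 0.05. "Rose" and "fell" are used for genes past that threshold in the paired fit. In the fit without pairs no gene of the table passed, and 235 genes, none of them an S phase or mitosis gene, had an unadjusted p under 0.05; the smallest adjusted p there was 0.0808. In a bulk sample of tail, fewer cells of a type and less RNA per cell cannot be told apart.

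Markers of the tail were present in every library: skeletal muscle transcripts summed to between 3505147 and 5608362 normalised counts in sih and between 3024924 and 4526695 in WT, and tail bud transcripts to between 5971 and 8365 in sih and between 5706 and 8008 in WT. The mutated gene, tnnt2a, had 0, 0 and 3 reads in sih and 0, 9 and 4 reads in WT. So few reads in the tail do not check the genotype labels.

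The genes of S phase and mitosis differed little between the genotypes. Of 95 such genes, 93 passed the filter on low values, and none of them passed through 1 genotype alone. In the paired fit 4 rose in sih (mcm7, aurkb, BUB1 and CENPE), which is 4.30% of 93 beside 2.77% of all genes tested, and 3 fell (pold3, cenph and MKI67), which is 3.23% beside 2.07%. Most of these genes are well sequenced, and among the 88 with a mean of at least 50 normalised counts the shares were 4.55% risen and 3.41% fallen, against 4.54% and 3.39% of all genes with such a mean. The shares called were thus near those of the whole table. No gene of S phase or mitosis had libraries that did not overlap between the genotypes, where 2.1% of all genes lay wholly higher in sih and 2.12% wholly lower (1.79% and 1.19% of genes with a mean of at least 50).

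**Figure D1:**
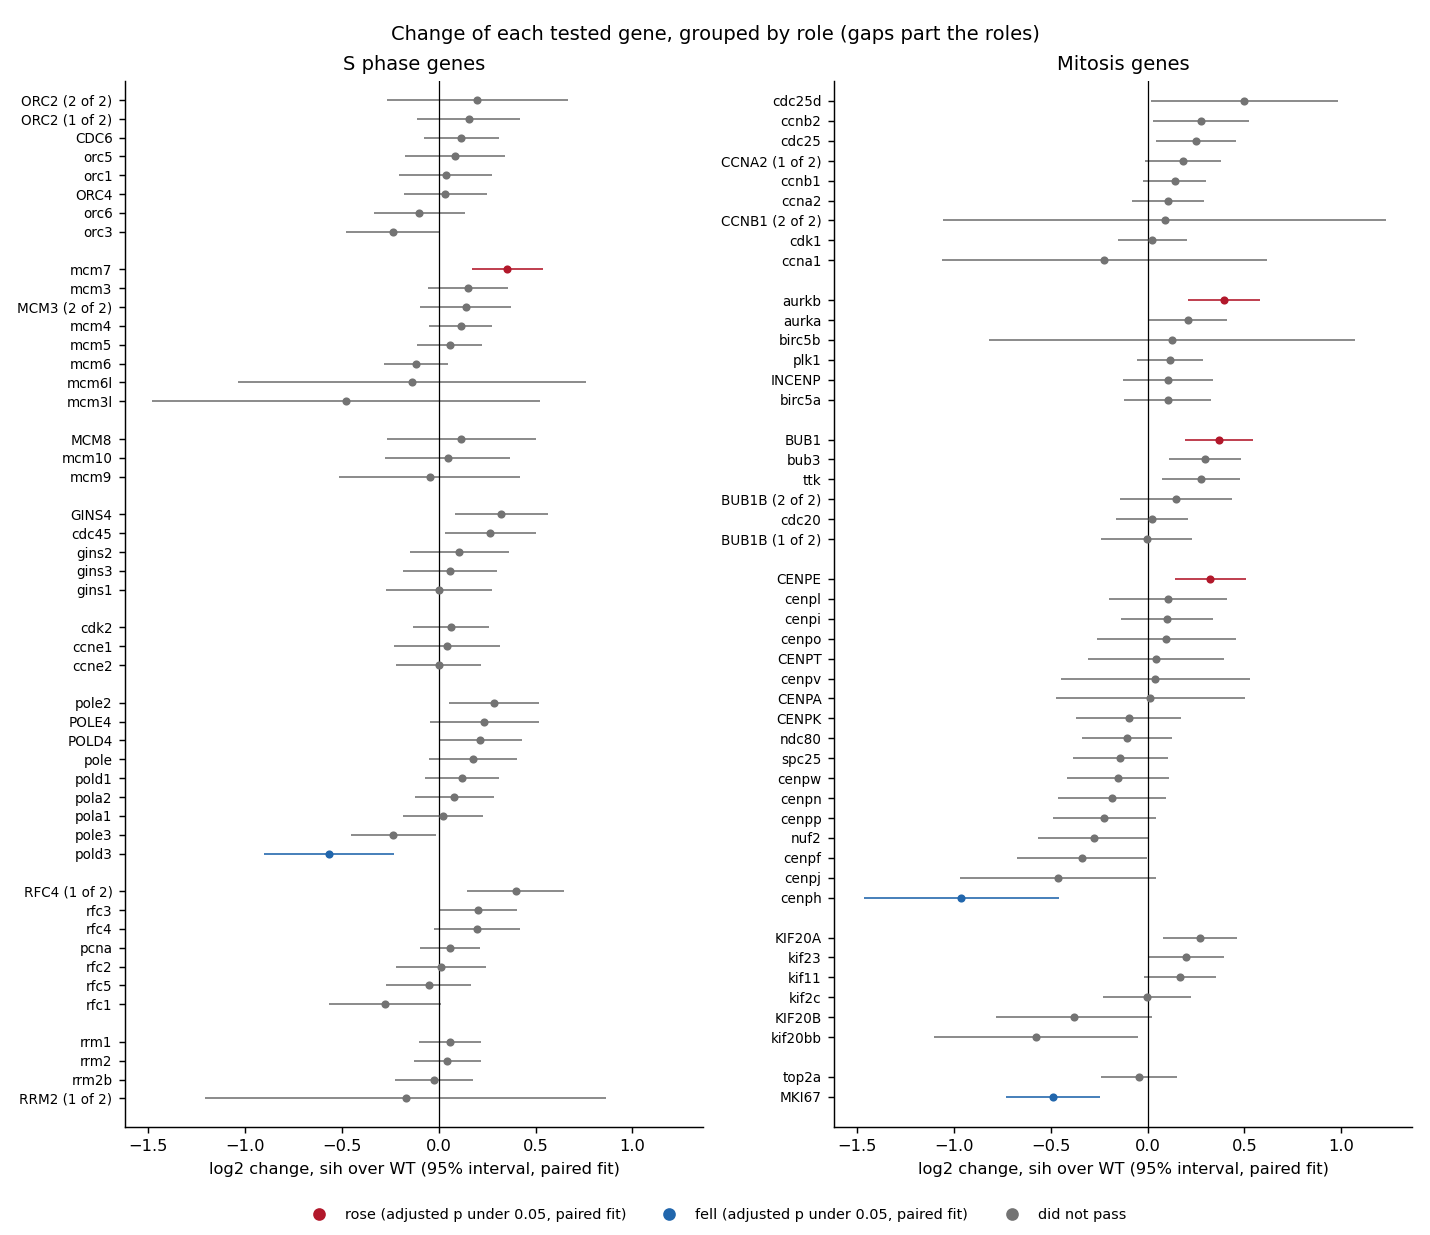
Log2 change of each tested S phase gene (left, 47) and mitosis gene (right, 46), sih over WT, with the 95% interval of the paired fit; gaps part the roles and colour marks the genes that passed. Of the 93 points, 90 lie within 0.5 of 0; mcm7, aurkb, BUB1 and CENPE are marked as risen and pold3, cenph and MKI67 as fallen.

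The changes were small. The median was 0.06 for S phase genes and 0.09 for mitosis genes, beside 0.00 for all genes tested, and the changes ran between -0.57 and 0.40 in S phase and between -0.96 and 0.50 in mitosis. By pair, the S phase median was 0.11, 0.03 and 0.08 and the mitosis median 0.08, 0.15 and 0.03. The median of all genes was 0.04, 0.00 and -0.02. For all genes with a mean of at least 50 it was 0.08, 0.01 and -0.02, so in pair 1 the mitosis median matched theirs. For 62 of 93 genes (66.7%) the whole 95% interval of the paired fit lay within 0.5 of 0, beside 36.4% of all genes. Among the 88 with a mean of at least 50 the share was 70.5%, beside 62.7% of all genes with such a mean. The 2 genes that could not be tested were pold2 and spc24, which had at most 1 read in any library.

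Counts of genes with 1 sign in all 3 pairs follow the scaling, and are read here against all genes. At the deposited scale 34 of 93 genes (36.6%) were higher in sih in all 3 pairs, where 20.2% of all genes were, and 11 (11.8%) were lower in all 3, where 18.2% of all genes were. Among the 88 with a mean of at least 50 the shares were 38.6% and 12.5%, beside 26.8% and 20.8% of all genes with such a mean. When libraries were scaled to their total reads, which moved the median of all genes to -0.18, 6 of 93 (6.45%) were higher in all 3 pairs and 32 (34.4%) were lower, where 7.90% and 36.5% of all genes were. Among those with a mean of at least 50 the shares were then 6.82% higher and 35.2% lower, beside 8.11% and 47.8% of all genes with such a mean. The medians moved with those of all genes, to -0.12 for S phase and -0.084 for mitosis, and their distance above the median of all genes was 0.054 and 0.094, beside 0.063 and 0.097 at the deposited scale.

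Summed over its 48 genes, S phase held 43347, 62495 and 84921 normalised counts in sih, against 40623, 60489 and 73969 in WT (63588 ± 20808 and 58360.4 ± 16774, SD, n = 3 each). The 47 mitosis genes summed to 31689, 35331 and 37835 in sih, against 29631, 31424 and 34543 in WT (34952 ± 3090.2 and 31866 ± 2486, SD, n = 3 each). Each sih library lay above its WT partner in both sums, and the genotypes overlapped in both, since WT replicate 3 exceeded sih replicates 1 and 2 in S phase and sih replicate 1 in mitosis. As a share of the library the S phase sum was 0.180%, 0.254% and 0.276% in sih and 0.195%, 0.269% and 0.279% in WT, so that on this scale each sih library lay below its partner. The mitosis sum was 0.132%, 0.144% and 0.123% of the library in sih and 0.142%, 0.140% and 0.130% in WT, higher in sih in pair 2 and lower in pairs 1 and 3.

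**Figure D2:**
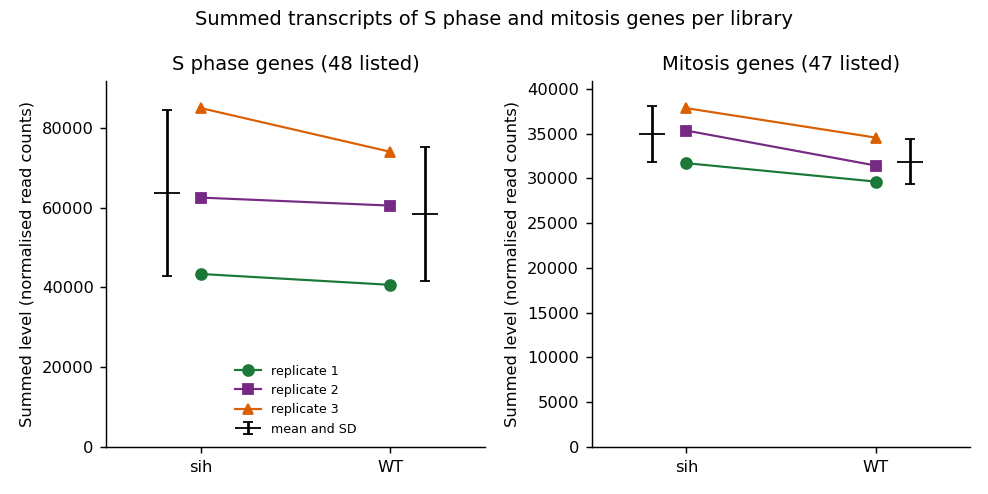
Summed normalised read counts of the 48 S phase genes (left) and 47 mitosis genes (right) in each library, sih and WT; lines join libraries of the same replicate number, and crosses with bars are the mean and SD of 3 libraries. The sih libraries span 43347 to 84921 in S phase, against 40623 to 73969 in WT, and the replicates lie farther apart than the genotypes; as a share of the library the S phase sums are lower in sih in every pair.

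The origin recognition complex and CDC6, which license origins, had no called member among 8. Their changes ran between -0.24 and 0.20 with a median of 0.06. CDC6, the loading ATPase, had 926, 1332 and 1573 in sih, against 759, 1371 and 1460.4 in WT (0.12 ± 0.09, adjusted p = 0.538). ORC4, a subunit of the complex, had 405, 769.8 and 877 in sih, against 436, 759 and 767 in WT (0.04 ± 0.10, adjusted p = 0.896). Neither gene kept 1 direction in all 3 pairs, and the genotypes overlapped in both.

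Of 8 entries for the MCM2-7 helicase, which unwinds DNA ahead of the fork, mcm7 (ENSDARG00000035761) alone was called. The entries hold no mcm2, so that subunit is not described here. It had 6576, 9029.7 and 18096 in sih, against 5745, 7743 and 11534 in WT. The sih library was higher in each pair, by 0.19, 0.22 and 0.65, and the genotypes overlapped because replicate 1 was low and replicate 3 high in both. mcm7 rose by 0.36 ± 0.09 (95% interval 0.17 to 0.54, adjusted p = 0.0244). Another subunit, mcm5, had 2707, 4292 and 6912 in sih, against 2752, 4426 and 5862 in WT (0.06 ± 0.08, adjusted p = 0.767). It was higher in sih in pair 3 and lower in pairs 1 and 2. The other 6 entries ran between -0.48 and 0.15, and the 2 lowest, mcm3l and mcm6l, had under 20 normalised counts in every library. MCM8 and mcm10, which are not subunits of that ring, had changes of 0.12 ± 0.18 (adjusted p = 0.786) and 0.05 ± 0.15 (adjusted p = 0.913). MCM8 had 110.0, 67.6 and 93.1 in sih, against 105, 57.8 and 89.4 in WT. For mcm10 the values were 222, 139.9 and 149 in sih, against 173, 139.5 and 174 in WT, and both genes overlapped between the genotypes.

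CDC45 and the 4 GINS subunits activate the loaded helicase. None of the 5 was called, and their changes ran between 0.00 and 0.32 with a median of 0.11. GINS4 had 205, 409 and 637 in sih, against 175, 321 and 484 in WT (0.32 ± 0.12, adjusted p = 0.117). The values of cdc45 were 299, 469 and 486 in sih, against 235, 396 and 421 in WT (0.27 ± 0.11, adjusted p = 0.196). In both genes each sih library lay above its partner and the groups overlapped. Cyclin E and CDK2, which trigger S phase, had changes between 0.00 and 0.06 in 3 entries, none called. ccne2 had 340.3, 669 and 633 in sih, against 379.6, 643 and 589 in WT (0.00 ± 0.10, adjusted p = 0.997), and cdk2 had 715, 1299 and 1205 in sih, against 616, 1401 and 1134 in WT (0.06 ± 0.09, adjusted p = 0.774).

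Of 9 tested subunits of the replicative DNA polymerases, pold3 (ENSDARG00000076169), an accessory subunit of polymerase delta, fell. It had 116, 152 and 74.5 in sih, against 204, 197 and 106 in WT. Each sih library was lower than its partner, by 0.82, 0.38 and 0.51 on the log2 scale, while sih replicates 1 and 2 stood above WT replicate 3. pold3 fell by 0.57 ± 0.16 (95% interval -0.90 to -0.23, adjusted p = 0.0467), close to the threshold. The catalytic subunits of polymerases alpha and delta were not called. pola1 had 877, 537 and 563 in sih, against 914, 503 and 548 in WT (0.02 ± 0.10, adjusted p = 0.93), and pold1 had 1189, 862 and 1483 in sih, against 1033, 869 and 1315 in WT (0.12 ± 0.09, adjusted p = 0.513). The groups overlapped in both.

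The PCNA clamp and the RFC clamp loader had no called member among 7. Their changes ran between -0.28 and 0.40, with 5 positive and 2 negative. pcna (ENSDARG00000054155), the clamp itself and a common marker of proliferation, had 8554, 16123 and 20965 in sih, against 8288, 16002 and 19273 in WT. The libraries of a pair were alike and the pairs far apart. The change was 0.06 ± 0.07, with a 95% interval of -0.10 to 0.21 (adjusted p = 0.726). RFC4 (1 of 2), a loader subunit, had 183, 409 and 705 in sih, against 157, 289 and 507 in WT, and its change of 0.40 ± 0.12 missed the threshold (adjusted p = 0.06) but passed with cyclic loess (adjusted p = 0.0432) or relative log expression scaling (0.0344), with a filter of 1 CPM in 3 libraries (0.0404) and in edgeR (0.0191). It did not pass with the other scalings run, without a filter, with a pseudocount of 0.1, in DESeq2 or with a pair left out. The table lists a second entry, rfc4, and how reads were shared between near copies is not given. rfc3, another subunit, had 660.2, 1101 and 1493 in sih, against 533, 1078 and 1231 in WT (0.21 ± 0.09, adjusted p = 0.245). Both RFC genes were higher in sih in each pair and overlapped between genotypes. pcna and mcm7 together held 34.9%, 40.2% and 46.0% of the summed S phase counts in sih, against 34.5%, 39.3% and 41.6% in WT.

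Ribonucleotide reductase, which makes deoxyribonucleotides, was likewise without a call among 4 entries. rrm1, the large subunit, had 4408, 4499 and 6360.5 in sih, against 4062, 4535 and 6074 in WT (0.06 ± 0.08, adjusted p = 0.74). The small subunit rrm2 (ENSDARG00000020711) had 719, 3265 and 3048 in sih, against 662, 3196 and 3081 in WT (0.04 ± 0.08, adjusted p = 0.822). Replicate 1 was low in both genotypes. The entry RRM2 (1 of 2) (ENSDARG00000078069) had the opposite pattern, with 720.4, 0 and 1.43 in sih, against 580.4, 3.30 and 0 in WT. Reads on this entry were thus confined to replicate 1 in both genotypes, apart from a few in sih replicate 3 and WT replicate 2. The 2 entries together had 1440, 3265 and 3050 in sih, against 1242, 3199 and 3081 in WT.

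**Figure D3:**
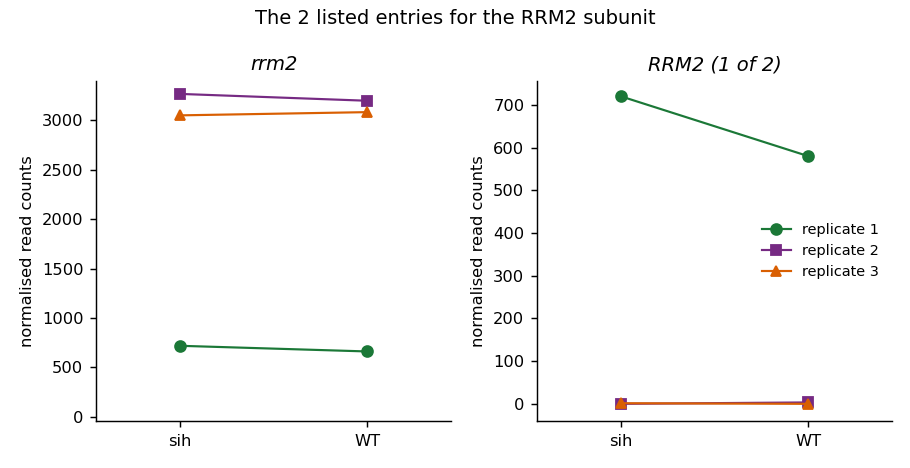
Normalised read counts of rrm2 (left) and RRM2 (1 of 2) (right) in each library, sih and WT; lines join libraries of the same replicate number. In replicate 1 both genotypes have 580.4 to 720.4 counts on RRM2 (1 of 2), against 3.30 or fewer in the other libraries, and replicate 1 is lowest on rrm2.

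In mitosis, the 9 entries for mitotic cyclins, CDK1 and the phosphatases that switch it on had no call, with a median change of 0.14. ccnb1 (cyclin B1) had 2028, 3674 and 3951 in sih, against 1833, 3319 and 3613 in WT (0.14 ± 0.08, adjusted p = 0.349). Each sih library lay above its partner and the groups overlapped. cdk1, the kinase it activates, had 1462, 2693 and 1788 in sih, against 1343, 2514 and 1980.3 in WT (0.02 ± 0.09, adjusted p = 0.919). cdc25d, of the phosphatase family, had 52.2, 49.1 and 78.8 in sih, against 39.4, 27.2 and 64.9 in WT (0.50 ± 0.23, adjusted p = 0.249), the largest positive change among mitosis genes with a mean of at least 50.

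The kinases of mitosis and their passenger complex had 1 call among 6 entries. aurkb (ENSDARG00000037640), the kinase of the chromosomal passenger complex, which corrects wrong attachments, had 1159, 1939 and 3336 in sih, against 1011, 1449.9 and 2253 in WT. Each sih library exceeded its partner, by 0.20, 0.42 and 0.57, and the groups overlapped. aurkb rose by 0.39 ± 0.09 (95% interval 0.21 to 0.58, adjusted p = 0.0159). plk1, a kinase of mitotic entry, had 2618, 3076 and 2851 in sih, against 2523, 2574 and 2778 in WT (0.12 ± 0.08, adjusted p = 0.483).

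The spindle checkpoint had 1 call among 6 entries, which include cdc20, the activator it restrains. BUB1 (ENSDARG00000077029), a checkpoint kinase at the kinetochore, had 1869.6, 1305 and 2835 in sih, against 1455, 1054 and 2092 in WT. The sih library was the higher in each pair, by 0.36, 0.31 and 0.44, the most even of the called changes, yet sih replicate 2 stood below WT replicates 1 and 3. BUB1 rose by 0.37 ± 0.08 (95% interval 0.19 to 0.54, adjusted p = 0.0154). Its partner bub3 had 1128, 1949 and 3727 in sih, against 1001, 1705 and 2589.7 in WT, and the change of 0.30 ± 0.09 missed the threshold (adjusted p = 0.0633) but passed in edgeR (adjusted p = 0.0191) and with relative log expression scaling (0.0389). bub3 did not pass with the other scalings, filters or pseudocount run, in DESeq2 or with a pair left out. The pairs of bub3 differed by 0.17, 0.19 and 0.53.

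Centromere and kinetochore genes, grouped by name, had 1 call in each direction among 17 tested. The grouping takes in cenpj, now called cpap, and the part each product plays at the kinetochore was not checked. CENPE (ENSDARG00000063385), a kinetochore motor, had 2548, 1075 and 1364 in sih, against 2072, 774 and 1186 in WT. It was higher in sih by 0.30, 0.47 and 0.20 in the pairs, and replicate 1 was high in both genotypes. CENPE rose by 0.32 ± 0.09 (95% interval 0.14 to 0.51, adjusted p = 0.0395). cenph (ENSDARG00000094892), of the inner kinetochore, had 13.6, 129.7 and 32.9 in sih, against 37.6, 163 and 74.7 in WT. Each sih library was lower, by 1.40, 0.32 and 1.16 on the log2 scale, and sih replicate 2 stood above WT replicates 1 and 3. cenph fell by 0.96 ± 0.24 (95% interval -1.46 to -0.46, adjusted p = 0.0253), the largest fall among mitosis genes with a mean of at least 50. The sih value of replicate 1 rested on 12 reads. ndc80, of the outer kinetochore, had 417, 693 and 506 in sih, against 496, 609 and 602 in WT (-0.11 ± 0.11, adjusted p = 0.669). The median of the 17 was -0.11.

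Of the 6 mitotic kinesin entries, motors of the spindle and of cell separation, none was called. Their changes ran between -0.57 and 0.27, with 3 positive and 3 negative. KIF20A, which acts in cytokinesis, had 1033, 790.1 and 1029 in sih, against 886, 642 and 842 in WT (0.27 ± 0.09, adjusted p = 0.102), and kif11, which separates the spindle poles, had 2049.9, 1538 and 1742 in sih, against 1987, 1194 and 1634 in WT (0.17 ± 0.09, adjusted p = 0.327). Each sih library was above its partner in both genes, and the groups overlapped. MKI67 (ENSDARG00000091150), the Ki-67 antigen of dividing cells, had 902, 1134 and 550.1 in sih, against 1629, 1198 and 798 in WT. The sih library was lower by 0.85, 0.08 and 0.54 on the log2 scale, so that the difference was small in pair 2, and the groups overlapped. MKI67 fell by 0.49 ± 0.12 (95% interval -0.73 to -0.25, adjusted p = 0.02). top2a, the topoisomerase that untangles chromosomes, had 1666, 1119 and 998 in sih, against 1719, 1001 and 1183 in WT (-0.04 ± 0.09, adjusted p = 0.857).

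**Figure D4:**
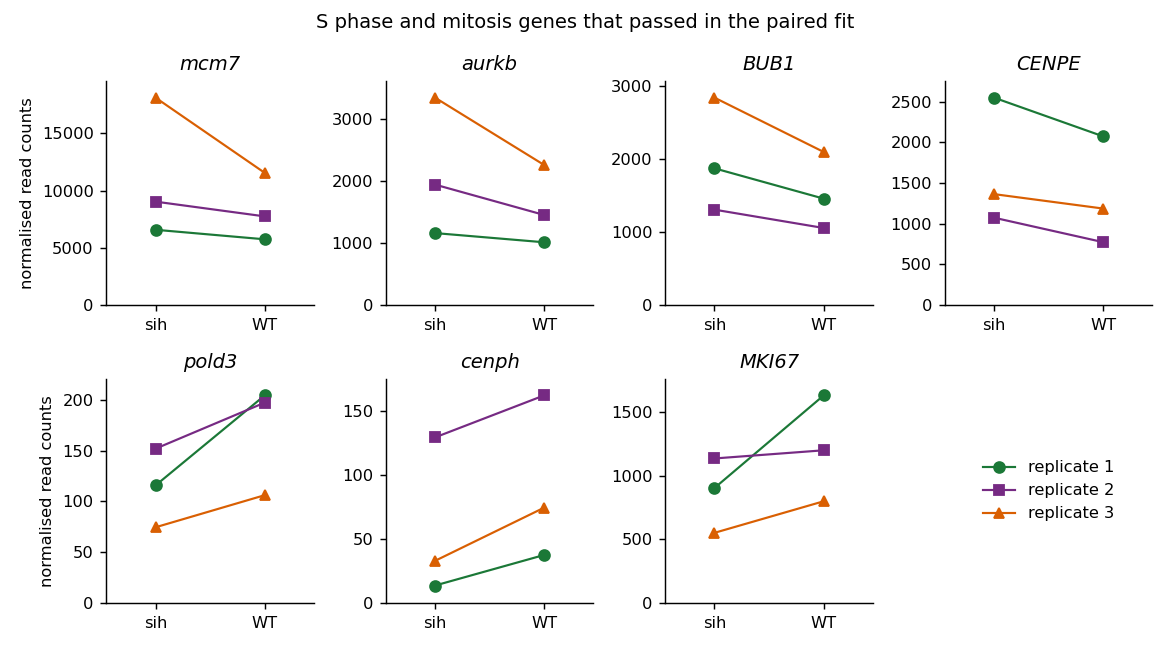
Normalised read counts of the 7 S phase and mitosis genes that passed the paired test in each library, sih and WT, with lines joining libraries of the same replicate number. In mcm7, aurkb, BUB1 and CENPE every line lies higher at sih, in pold3, cenph and MKI67 every line lies lower at sih, and in each gene the groups overlap.

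Leaving out a pair leaves 2 pairs. Without pair 1 no gene of the table was called. Without pair 2 the calls were 220 higher and 284 lower, and without pair 3 they were 159 and 85. The calls of the table thus depended on which pair was left out, and sizes are given here. Without 1 pair in turn, BUB1 kept a change between 0.33 and 0.40, aurkb between 0.31 and 0.49, CENPE between 0.25 and 0.39, pold3 between -0.66 and -0.44 and cenph between -1.28 and -0.74. mcm7 was 0.21 without pair 3 and 0.42 or more otherwise, and MKI67 was -0.31 without pair 1 and between -0.69 and -0.47 otherwise. Of the 7, MKI67 alone was called with a pair left out (without pair 2, adjusted p = 0.00684); the adjusted p of the others ran between 0.0562 and 0.472. With library totals as the scaling none of the 4 rises passed (adjusted p between 0.156 and 0.365) and all 3 falls did (adjusted p between 0.00511 and 0.0116), and with a pseudocount of 0.1 BUB1 alone was called (adjusted p = 0.0431). Library totals moved the median of all genes to -0.18, and called 179 higher and 2024 lower of all 22813. Of the 93 genes they called 0 higher and 6 lower. The pseudocount of 0.1 called 266 higher and 144 lower over all genes. With cyclic loess scaling mcm7 had a change of 0.22 (adjusted p = 0.127).

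Among the 3 genes that match only by name, mki67ip (ENSDARG00000040666, now NIFK), whose product binds Ki-67 and sits in the nucleolus, had 334, 1307 and 766 in sih, against 550.1, 1526 and 1153 in WT. Each sih library was lower, by 0.72, 0.22 and 0.59 on the log2 scale, and the groups overlapped. mki67ip fell by 0.51 ± 0.10 (95% interval -0.73 to -0.29, adjusted p = 0.00785), and its change was between -0.65 and -0.41 with 1 pair left out. aurkaip1, a mitochondrial ribosome protein, had 446, 938 and 914 in sih, against 540.1, 1201 and 1034 in WT (-0.27 ± 0.09, adjusted p = 0.111). In mcm3ap, an mRNA export factor, the change was 0.06 ± 0.10 (adjusted p = 0.807).

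The numbered pairs differed from each other more than the genotypes did. In 92 of 93 genes the spread of the 3 pair means exceeded the change between genotypes, beside 20986 of all 22813 genes (92.0%). The spread is the highest pair mean minus the lowest, so it tends to exceed a change that is small. The median spread was 0.95 in S phase, 0.94 in mitosis and 0.90 in all genes, on the log2 scale. Among the 88 with a mean of at least 50 it was 0.91, above the 0.77 of all genes with such a mean. S phase genes stood lower in replicate 1 than in replicates 2 and 3 by a median of 0.73, mitosis genes by 0.36. The median of replicate 1 minus the others was 0.04 over all genes and -0.058 over genes with a mean of at least 50. Replicate 1 was the lower in 34 of 47 S phase genes and 30 of 46 mitosis genes, beside 11022 of all 22813 genes and 7029 of the 13248 with such a mean. rrm2 and cenph were farthest below in replicate 1, at -2.19 and -1.86, and INCENP, of the passenger complex, and kif20bb, a kinesin, farthest above, at 1.17 and 1.23, RRM2 (1 of 2) aside. INCENP had 833, 395 and 453 in sih, against 923, 331 and 390.2 in WT. Replicate 1 was the highest in both genotypes. The standard error of a change had a median of 0.11 over these genes with pairs and 0.38 without.

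**Figure D5:**
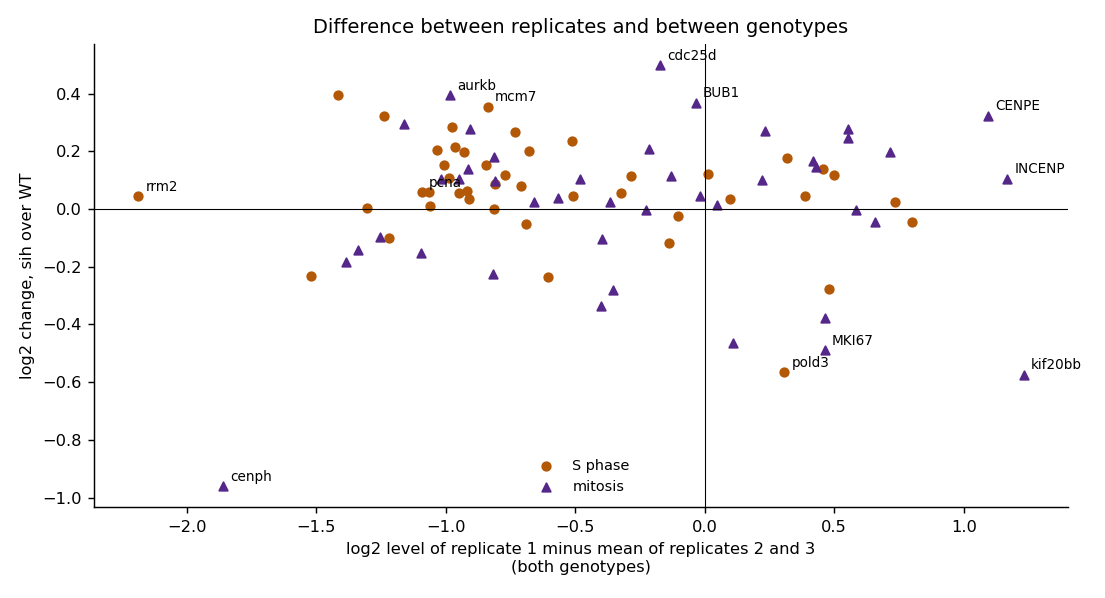
Change between genotypes (log2, sih over WT, y axis) against the difference of replicate 1 from the mean of replicates 2 and 3 (log2, both genotypes, x axis) for S phase and mitosis genes with a mean of at least 50 normalised counts, without RRM2 (1 of 2), whose x value is 8.49. The x axis spans -2.19 (rrm2) to 1.23 (kif20bb), and the y axis -0.96 (cenph) to 0.50 (cdc25d).

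Other genes of the cell cycle were counted from 3 lists. Of 50 tested S phase genes outside the naming rule 1 rose (2.0%) and 2 fell (4.0%), with a median of 0.02. These shares, like those of the 2 lists that follow, lie near or below the 4.54% and 3.39% of all genes with a mean of at least 50. Over all genes tested the shares were 2.77% and 2.07%. The falls here, above 2.07%, are 2 genes of 50. mms22l, a factor of fork repair, rose by 0.36 ± 0.10 (adjusted p = 0.0413), with 615, 600.2 and 988 in sih, against 442, 492 and 792 in WT. slbp, which binds histone messenger RNA, fell by 0.44 ± 0.11 (adjusted p = 0.0259), with 337, 1993 and 947 in sih, against 565, 2105 and 1326 in WT. fen1, the flap nuclease of Okazaki fragments, fell by 0.32 ± 0.09 (adjusted p = 0.038), with 650.0, 1645 and 1364 in sih, against 850.0, 1916 and 1755 in WT.

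Of 87 further mitosis genes 2 rose (2.30%) and 1 fell (1.15%), with a median of 0.04. dlgap5, a spindle protein, rose by 0.37 ± 0.09 (adjusted p = 0.0205), with 1984, 933 and 1391 in sih, against 1601, 747 and 995 in WT. smc4, a condensin subunit, rose by 0.32 ± 0.09 (adjusted p = 0.0384), with 2309, 719.7 and 1176 in sih, against 1826, 594 and 917 in WT. lmnb2, a nuclear lamin, fell by 0.38 ± 0.08 (adjusted p = 0.0139), with 2121, 4431 and 2672 in sih, against 3224, 5499 and 3137 in WT. Of 49 genes of G1 control and cell cycle exit 1 rose (2.04%) and none fell, with a median of 0.09. tfdp1b, a partner of E2F factors, rose by 0.38 ± 0.09 (adjusted p = 0.0201), with 743, 1129 and 1958 in sih, against 590.5, 897 and 1406 in WT. The sih libraries lay on 1 side of their partners in all 3 pairs in each of these 7 genes. With 1 pair left out slbp had a change between -0.61 and -0.28, lowest in size without pair 1, and fen1 between -0.38 and -0.29. The other falls and rises ran between -0.46 and -0.27 (lmnb2), 0.30 and 0.40 (mms22l), 0.31 and 0.40 (dlgap5), 0.31 and 0.35 (smc4), and 0.33 and 0.40 (tfdp1b).

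Transcripts of erythroid markers were higher in sih. Of 29 tested 26 rose (89.7%, beside 2.77% of all genes) and none fell, with a median change of 1.79 and a summed level of 172876, 225981 and 224791 in sih, against 45739, 42287 and 56843 in WT, and no marker was at 0 in every library. Of 29 tested neutrophil and macrophage entries 6 fell (20.7%, beside 2.07% of all genes), 7 had changes above 0 and none rose, with a median of -0.65 and a sum of 2833, 2454 and 2506 in sih, against 3777, 3461 and 3273 in WT; MFAP4 (5 of 13) was at 0 in all 6 libraries. Spinal cord genes had no call among 31, and tail bud genes 1 rise among 33 (3.03%; medians 0.08 and 0.02). Among 44 skeletal muscle genes 5 rose (11.4%) and none fell, and among 24 epidermal genes 4 rose (16.7%) and 2 fell (8.33%), with medians of 0.13 in both. The part of these cell types in the changes of the replication and mitosis genes was not tested.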

How the data were processed

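Poly(A) RNA of 3 sih and 3 WT tail samples was sequenced. The authors deposited 1 table of normalised counts, a signal scale in which the reads of each library are divided by 1 factor. This was checked on the values: 100% of them were whole multiples of 1 read, within a relative tolerance of 1e-06. The submitters' processing notes list edgeR 3.0.8, HTSeq 0.5.3p5 and TopHat beside the build Zv9; the sources used here do not give annotation, strand setting or the handling of near copies, so reads of overlapping or antisense genes cannot be told apart. Symbols are those of the table; 84 of the 98 genes have a current symbol. Reads counted on the listed genes, with the smallest value of each library taken as 1 read, numbered 21240839 to 27222955 per library. This depth limits the precision of genes with few reads.

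Values plus 1 were taken to log2. The 22813 genes whose sih or WT mean reached 1 entered limma 3.58.1 (R 4.3.3), mean-variance trend, two-sided, with Benjamini-Hochberg adjustment at 0.05. The main fit has no block and called no gene. Over 13248 genes with a mean of at least 50, deviations from the genotype means correlated at 0.932, 0.884 and 0.852 between libraries of the same number, against -0.730 to 0.136 otherwise. All 3 exceeded the bound of 0.1. So did sih 2 with WT 3 (0.136) and sih 3 with WT 2 (0.101), so the bound alone does not mark the pairs. The numbers were taken to pair the libraries because the matched correlations lay far above the others. Part of that gap is built in, since the deviations of the 3 libraries of a genotype cancel for each gene. High matched correlations therefore push the others down. Standard errors, intervals and adjusted p-values of single genes in the Results are those of the fit with the replicate block. What the number stands for is not in the labels, nor whether libraries came from separate clutches, so p-values measure a spread that may be technical. Count models (edgeR 4.0.16, DESeq2 1.42.0) on the recovered reads were alternatives, with other scalings, filters, pseudocounts and libraries left out.

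The members, roles and lists were chosen with earlier results of these data known. Values in every library are given for called members, for the 2 most abundant of each role and for the highest and lowest change among genes with a mean of at least 50. The other genes named (INCENP, kif20bb, mcm3l, mcm6l, mcm3ap, mcm6, orc3, pole3 and RRM2 (1 of 2)) were chosen after their values were seen. Scripts were tested on simulated data. No sequence is shown, since none was used here.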

Additional observations from a re-analysis of the deposited data

How the results depend on the processing

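Without the replicate block no gene of the table was called by limma under any scaling or filter run except cyclic loess, a scaling chosen after seeing the data (7 higher in sih), and DESeq2 called 46 higher and 2 lower; edgeR called 0, and none of these fits called an S phase or mitosis gene. The replicate block gave 632 higher and 473 lower over all genes, of which 4 and 3 are S phase or mitosis genes, against 0 and 0 with no replicate block. With the block, a pseudocount of 0.1 gave 266 and 144 over all genes and 1 and 0 of these genes. Library totals gave 179 and 2024 over all genes, or 190 and 1868 without erythroid genes, and 0 and 6 of these genes in both. With the block edgeR called 1004 higher and 795 lower over all genes. Those of S phase or mitosis were BUB1, CENPE, RFC4 (1 of 2), aurkb, bub3 and mcm7, all higher, and MKI67, cenph and pold3, all lower. DESeq2 with the block called 308 lower, of which 1 (MKI67) is among these genes. It also called BUB1, CENPE, aurkb and mcm7 higher. The number of all genes called higher in that fit is not given here, so no share of the table stands beside these calls. Leaving out a pair gave 0 to 220 higher and 0 to 284 lower over all genes, and 0 higher and 0 to 1 lower of these genes. Leaving out 1 library without the block gave 0 calls.

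The S phase median was -0.12 with library totals (-0.12 without erythroid genes), with a range of -0.15 to 0.31 when 1 library was left out and 0.068 to 0.095 when 1 pair was. The mitosis median was -0.084 with library totals (-0.076 without erythroid genes), 0.034 in edgeR, -0.098 to 0.16 without 1 library and 0.021 to 0.087 without 1 pair. Of the 93 genes, 6 were higher in sih in all 3 pairs with library totals (7 without erythroid genes), 32 lower (31), and 1 had sih libraries wholly below WT in both.

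Among single genes, the called ones kept their direction under every scaling, filter and test run, but with the block cyclic loess lost mcm7 (adjusted p = 0.127), CENPE (0.0515) and pold3 (0.0504), DESeq2 lost pold3 (0.113) and gave cenph no adjusted p, and no filter lost pold3 (0.0618). RFC4 (1 of 2) and bub3 passed under 4 and 2 of the alternatives with the block, higher in sih, and under none of the others. With the block and library totals mcm6 (-0.30, adjusted p = 0.0242), orc3 (-0.42, 0.0366) and pole3 (-0.42, 0.0251) passed, lower in sih. These genes also passed with library totals without erythroid genes. Without 1 library CENPE ran from -0.034 to 0.69, mcm7 from -0.055 to 0.68 and mki67ip from -0.97 to 0.017. Library totals lower the median of all genes to -0.18, and small positive changes of uncalled genes turned negative with that common offset. Which scaling is right was not tested. The genes were (in parentheses without erythroid genes): CDC6 -0.067 (-0.058), MCM8 -0.064 (-0.056), ORC4 -0.15 (-0.14), ccnb1 -0.044 (-0.035), ccne2 -0.18 (-0.17), cdk1 -0.16 (-0.15), cdk2 -0.12 (-0.11), kif11 -0.017 (-0.0084), mcm10 -0.14 (-0.13), mcm5 -0.13 (-0.12), pcna -0.12 (-0.12), plk1 -0.068 (-0.060), pola1 -0.16 (-0.15), pold1 -0.063 (-0.054), rrm1 -0.13 (-0.12) and rrm2 -0.14 (-0.13). With cyclic loess cdk1 was -0.027, mcm5 -0.038, pcna -0.097, rrm1 -0.044 and rrm2 -0.0064, and with upper quartile scaling ccne2 was -0.00058. RRM2 (1 of 2), at -0.17 in the main fit, was 0.31 in edgeR, 0.32 in DESeq2 and 0.26 in edgeR with the block. Replicate 1, which held nearly all of its reads, was higher in sih. In pair 2, with few reads, sih was the lower, so the sign in the main fit rests on few reads.

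Left-out libraries or pairs moved the following across 0: ndc80 (-0.30 to 0.062), top2a (-0.26 to 0.18), ccnb1 (-0.17 to 0.44), cdk1 (-0.22 to 0.23), kif11 (-0.031 to 0.34), bub3 (-0.15 to 0.72), pola1 (-0.20 to 0.29), pold1 (-0.062 to 0.33), GINS4 (-0.064 to 0.76), mcm5 (-0.28 to 0.39), MCM8 (-0.13 to 0.31), mcm10 (-0.16 to 0.18), ccne2 (-0.23 to 0.31), cdk2 (-0.28 to 0.33), CDC6 (-0.18 to 0.33), ORC4 (-0.23 to 0.38), rrm1 (-0.11 to 0.22), rrm2 (-0.70 to 0.76), RFC4 (1 of 2) (-0.058 to 0.91), pcna (-0.30 to 0.43), rfc3 (-0.16 to 0.52), aurkaip1 (-0.62 to 0.081), slbp (-1.04 to 0.24), fen1 (-0.69 to 0.078), smc4 (-0.12 to 0.76) and RRM2 (1 of 2) (-3.12 to 2.54). The cause of these moves was not tested. No promoter sequences were used here, so the planned motif search was not run. A change of a gene with few reads, such as cenph, rests on a coarse count.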
